A study of Mus musculus with 8 samples.

Results

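Resting cells of the mouse macrophage line RAW 264.7 (RAW) were compared with resting bone marrow-derived macrophages (BMDM) across all genes of a deposited table of read counts from polyadenylated RNA. The comparison rests on 3 unstimulated libraries of the 8 in the series: 1 of RAW and 2 of BMDM, taken by their labels. Of the 43346 genes in the table, 12461 had enough reads to be tested. RAW cells were grown in DMEM with fetal bovine serum and BMDM in L929-conditioned medium, so cell type and medium cannot be told apart. The labels state neither strain, sex and age of the BMDM donors nor whether the 2 BMDM replicates were separate cultures. All p-values therefore measure only how far these libraries spread, and that spread may be technical. The remaining libraries, RAW and BMDM after 3 h of lipopolysaccharide (LPS, at a dose the labels do not state) and the cells labelled hMPDM at rest and after LPS, served to estimate the spread or are named as further values.

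RAW 264.7 is a macrophage-like line taken from a tumour that Abelson murine leukaemia virus induced in a male BALB/c mouse, and it divides in culture without added growth factor. BMDM are marrow cells that mature and divide under the macrophage growth factor CSF1, which L929 cells secrete into their medium. Both respond to bacterial products through Toll-like receptors, and both are used as stand-ins for tissue macrophages, which clear dead cells and debris, present antigen on MHC class II and recycle iron and lipid.

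The RAW library held 3116434 counts and the BMDM libraries 15671839 and 19307312. A count of 0 allows up to 3 counts, which is 0.785 CPM in RAW cells against 0.179 and 0.145 CPM in the BMDM libraries (CPM is the count as a share of the library, scaled by TMM). Across genes on the log2 CPM scale, RAW at rest correlated with the BMDM libraries at 0.850 and 0.849 and with RAW after LPS at 0.975. The RAW library has no replicate and was assumed to vary as BMDM pairs do, whose fitted coefficient of variation was 2.271%. With so small a spread small differences pass a test against no change, so the counts given lead with an edgeR test against a fold change of 2, and "more than 2-fold" means an adjusted p under 0.05 in that test. The standard error (SE) beside a log2 difference comes from the test statistic, whose spread rests on the BMDM pairs and on no RAW replicate. Fewer cells that express a gene and less of its RNA per cell cannot be told apart in bulk libraries. Some genes that are abundant in BMDM kept a few reads in RAW cells. The 4 given here were picked for a high BMDM level and a very small RAW share, so their small shares follow from the choice. Emb stood at 0.00642 of the BMDM level, Xist at 0.00671, C1qb at 0.00671 and Thbs1 at 0.00690, with 10, 32, 21 and 51 reads in the RAW library. The 95% counting interval of Emb was 0.00308 to 0.0118. Mmp12, outside this choice, was at 0.0124. The source of these reads was not tested. Cgnl1, at 176 and 182 CPM in BMDM, had no read in RAW cells.

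In all, 713 genes (5.72% of those tested) were more than 2-fold higher in RAW cells and 1110 (8.91%) more than 2-fold lower. Without the fold threshold 3381 genes (27.1%) were called higher and 3901 (31.3%) lower. Counts of list members given below are to be read against these shares, and a count near them is no result about the list. The median log2 difference of all tested genes was -0.06. Scaling by library size alone raised that median by 0.20 and turned the balance of the calls: 949 genes were then more than 2-fold higher and 930 lower, with 4485 called higher and 2868 lower. Higher genes then made up 61.0% of the calls, against 46.4% with TMM, and 50.5% of those past the fold threshold, against 39.1%. The libraries after LPS, which the resting values do not share, can be set beside these calls without a test. Of the 713 genes higher in RAW, 611 (85.7%) were also at least 2-fold higher there, as were 12.4% of all tested genes. Of the 1110 lower in RAW, 993 (89.5%) were at least 2-fold lower after LPS, against 19.4% of all tested genes.

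**Figure D1:**
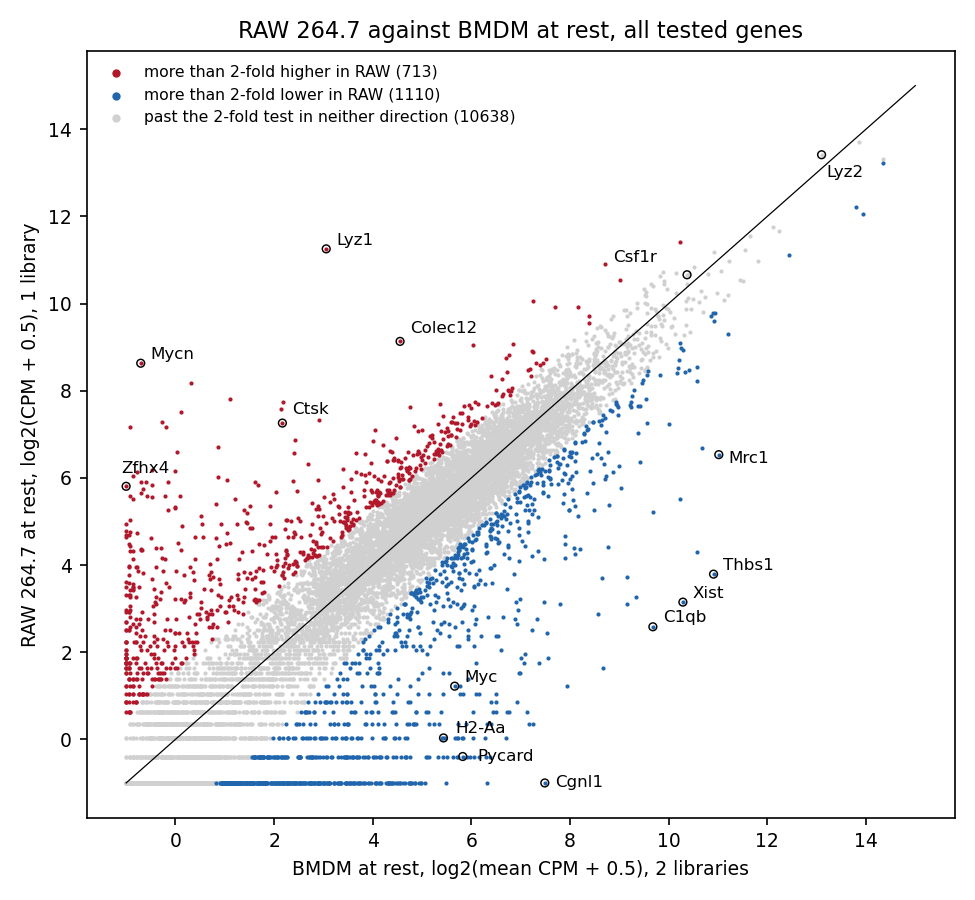
Level of each of the 12461 tested genes in the RAW library (vertical axis) against the mean of the 2 BMDM libraries (horizontal axis), both as log2(CPM + 0.5). Red points are the 713 genes more than 2-fold higher in RAW cells, blue points the 1110 more than 2-fold lower, and the line marks equal levels, which Csf1r and Lyz2 lie close to.

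RAW cells and BMDM differed in which MYC family member they transcribed. MYC proteins are transcription factors that drive growth and ribosome production, and MYCN is best known from the developing nervous system and neuroblastoma. Mycn (ENSMUSG00000037169.10, chromosome 12, 12936096 to 12941914, mm10) stood at 396 CPM in RAW cells, against 0.179 and 0.0484 CPM in BMDM. It had 1513 reads in RAW against 3 and 1 in BMDM (log2 difference 11.70, SE 0.154, adjusted p for 2-fold = 2.36e-29). Myc (ENSMUSG00000022346.10, chromosome 15) lay the other way, at 1.83 CPM in RAW cells and 48.1 and 52.2 CPM in BMDM (log2 -4.77, SE 0.278, adjusted p for 2-fold = 6.28e-12). The RAW library after LPS had 336 CPM of Mycn and 15.8 CPM of Myc, and hMPDM at rest had 0.301 and 32.2 CPM. Max, the shared partner of both proteins, was at 111 CPM in RAW and 93.1 and 97.2 CPM in BMDM and did not pass the fold threshold. Mxd1, which competes with MYC for MAX, was more than 2-fold lower in RAW (5.49 CPM, against 17.5 and 17.0 CPM in BMDM). That call was lost under scaling by library size (log2 -1.45, against -1.65). It was also lost in DESeq2 and with the coefficient of variation set at 10% and 30%. Mycl had 0 reads in RAW and 1 read in each BMDM library.

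Genes of ribosome production, many of them known MYC targets, were higher in RAW cells as a group. Of 18 such genes all 18 were called higher and 11 were more than 2-fold higher, with log2 differences from 0.47 to 2.46 and a median of 1.46. Dkc1, the pseudouridine synthase of ribosomal RNA, had the largest difference, at 120 CPM in RAW against 20.9 and 22.8 CPM in BMDM (log2 2.46, SE 0.0981). Nop16, which acts in assembly of the large subunit, stood at 82.9 CPM in RAW against 18.9 and 19 CPM in BMDM. The nucleolar chaperone Npm1 was at 431 CPM in RAW against 104 and 103 CPM in BMDM (log2 2.06), and nucleolin, Ncl, at 1487 CPM against 505 and 530 CPM (log2 1.52). Rrp12, at the low end, had 59.4 CPM in RAW and 44.7 and 41.1 CPM in BMDM. The whole list of 26 MYC network and ribosome genes had 12 members more than 2-fold higher and 2 lower, with a median of 1.09.

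**Figure D2:**
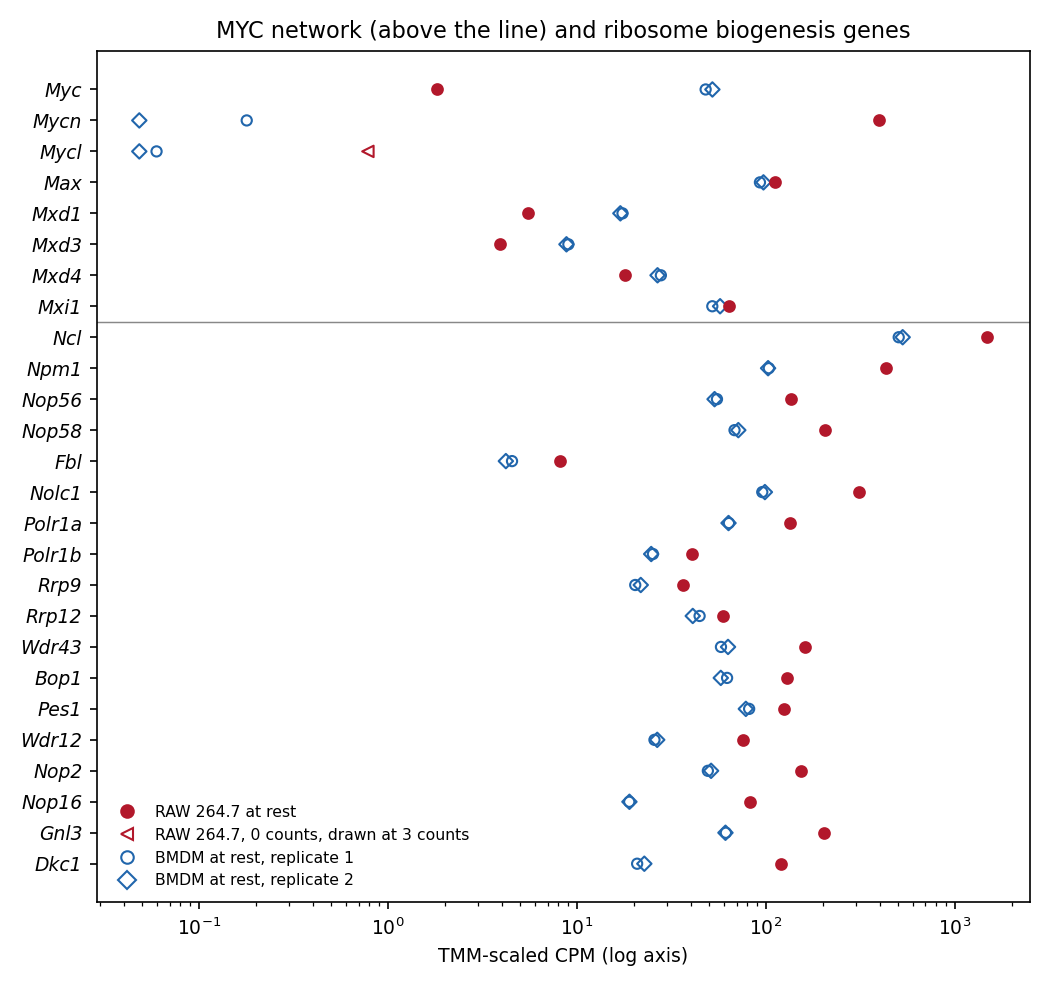
Level of the MYC network genes (above the line) and ribosome biogenesis genes (below it) as CPM on a log axis, with the RAW library in red and the 2 BMDM libraries in blue. Mycn and Myc lie at opposite ends between the cell types, and all 18 ribosome genes have the RAW point to the right of both BMDM points.

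Cell cycle genes were read well in both cell types, and most were called higher in RAW cells by small margins. Of 23 genes of DNA replication and G1/S, 16 were called higher and 3 lower, with a median log2 difference of 0.53. Over all tested genes 27.1% were called higher and 31.3% lower. Ccne1, the cyclin that drives entry into S phase, was the member more than 2-fold higher (62.0 CPM in RAW, against 22.2 and 23.4 CPM in BMDM). That call was lost in DESeq2 and with the coefficient of variation set at 30%. Of 20 genes of mitosis, 16 were called higher and 1 lower, with a median of 0.35. Of these 20, 0 were more than 2-fold higher and 0 lower in edgeR. By the same 2-fold test 0 were at an unadjusted p under 0.05, and 0 passed 2-fold in DESeq2. The proliferation marker Mki67 stood at 960 CPM in RAW and 769 and 821 CPM in BMDM (log2 0.27).

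CDK inhibitors, D cyclins and genes of the p53 axis included larger differences. Of 20 genes of that group 4 were more than 2-fold lower in RAW cells and 0 higher. Among the 4, Cdkn1c, Cdkn2a and Sesn2 lost that call in DESeq2. Cdkn2a and Sesn2 also lost it with the coefficient of variation set at 30%. Ccnd2, a D cyclin that growth factors induce, had 3 reads in RAW (0.785 CPM) against 38.3 and 35.9 CPM in BMDM, a RAW to BMDM ratio of 0.0212 (95% counting interval 0.00437 to 0.0621). The other D cyclins were closer: Ccnd1 was at 458 CPM in RAW and 726 and 747 CPM in BMDM, and Ccnd3 at 41.3 CPM against 62.7 and 59.1 CPM. Cdkn1c, which encodes the CDK inhibitor p57, had no read in RAW and 6.64 and 7.46 CPM in BMDM, so it was at least 9.03-fold lower. Cdkn2a, the tumour suppressor locus of p16 and p19ARF, had no read in RAW either, against 1.14 and 1.74 CPM in BMDM, at least 1.88-fold lower. The call for Cdkn2a was lost without BMDM replicate 2 (edgeR adjusted p for 2-fold = 0.0889, 0.0184 to 0.872 over the alternatives) and under scaling by library size. Sesn2, a p53 target, was also more than 2-fold lower, while Trp53 itself stood at 108 CPM in RAW and 68.1 and 70.7 CPM in BMDM (log2 0.64, called higher).

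Several macrophage identity genes were abundant in both cell types. Csf1r, the CSF1 receptor (ENSMUSG00000024621.11), was at 1617 CPM in RAW and 1353 and 1296 CPM in BMDM (log2 0.29, SE 0.0462). Lyz2, lysozyme 2, was at 10914 CPM in RAW and 8902 and 8657 CPM in BMDM, and Mpeg1, a pore protein of phagocytes, at 2991 CPM against 3212 and 3202 CPM. Of 18 tested members of the list 3 were more than 2-fold higher and 5 lower. Without the fold threshold 6 were called higher and 11 lower, with a list median of -0.51. The F4/80 gene Adgre1 stood at 260 CPM in RAW against 633 and 618 CPM in BMDM (log2 -1.26), and Itgam, the CD11b chain, at 349 CPM against 772 and 767 CPM (log2 -1.14). Both lost their 2-fold calls under scaling by library size (log2 -1.06 for Adgre1 and -0.94 for Itgam). Both also lost them with the coefficient of variation set at 10% and 30%. Itgam lost its call in DESeq2 and with DESeq2 size factors as well. Cd84, an adhesion receptor of the SLAM family, was far lower in RAW cells. It stood at 12.8 CPM in RAW against 573 and 566 CPM in BMDM (log2 -5.47, SE 0.109). Siglec1, a sialic acid receptor of tissue macrophages, was higher in RAW (89.2 CPM, against 34.1 and 28.1 CPM in BMDM), as were Cx3cr1 and Aif1. All 3 lost their 2-fold calls in DESeq2 and with the coefficient of variation set at 30%. Cd163, a haemoglobin scavenger, had no read in RAW against 2.09 and 1.99 CPM in BMDM, at least 2.59-fold lower.

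The master regulator of the lineage did not pass the test. Spi1, which encodes PU.1, was at 237 CPM in RAW and 241 and 256 CPM in BMDM (log2 -0.07, adjusted p = 0.381). Of 25 myeloid transcription factor genes 1 was more than 2-fold higher and 5 lower, with a median of -0.55. Maf, which restrains self-renewal of macrophages, stood at 92.9 CPM in RAW against 367 and 379 CPM in BMDM (log2 -2.01). Id2, Klf4, Pparg and Ets2 were also more than 2-fold lower. Klf4 had 1.57 CPM in RAW against 17.1 and 18.7 CPM in BMDM. The oxysterol receptor gene Nr1h3 was the member more than 2-fold higher (17.8 CPM, against 5.38 and 6.69 CPM in BMDM), a call lost without BMDM replicate 1 (edgeR adjusted p for 2-fold = 0.0564, 0.00159 to 1 over the alternatives).

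Of 19 tested growth factor and cytokine receptors and ligands 14 were called lower in RAW cells, 1 was called higher and 4 were not called. Of these 9 were more than 2-fold lower and 0 higher, with a list median of -0.99. Csf1, the ligand of CSF1R, had 1 read in RAW (0.262 CPM) against 56.5 and 62.8 CPM in BMDM, a ratio of 0.00436 (0.000110 to 0.0243). After LPS it was read at 6.85 CPM in RAW, and hMPDM at rest had 291 CPM. Il4ra, the receptor chain for interleukins 4 and 13, stood at 22.0 CPM in RAW against 235 and 240 CPM in BMDM (log2 -3.43, SE 0.109). The shared beta chains of the GM-CSF and interleukin-3 receptors, Csf2rb and Csf2rb2, and the interferon gamma receptor chain Ifngr1 were also lower, the last at 37.9 CPM in RAW and 136 and 135 CPM in BMDM. Il3ra had 2 reads in RAW against 25.8 and 23.9 CPM in BMDM (ratio 0.0211, 0.00256 to 0.0766), and Igf1r had none against 7.77 and 9.79 CPM, at least 11.3-fold lower. The interferon receptor chains Ifnar1, Ifnar2 and Ifngr2 did not pass either test.

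**Figure D3:**
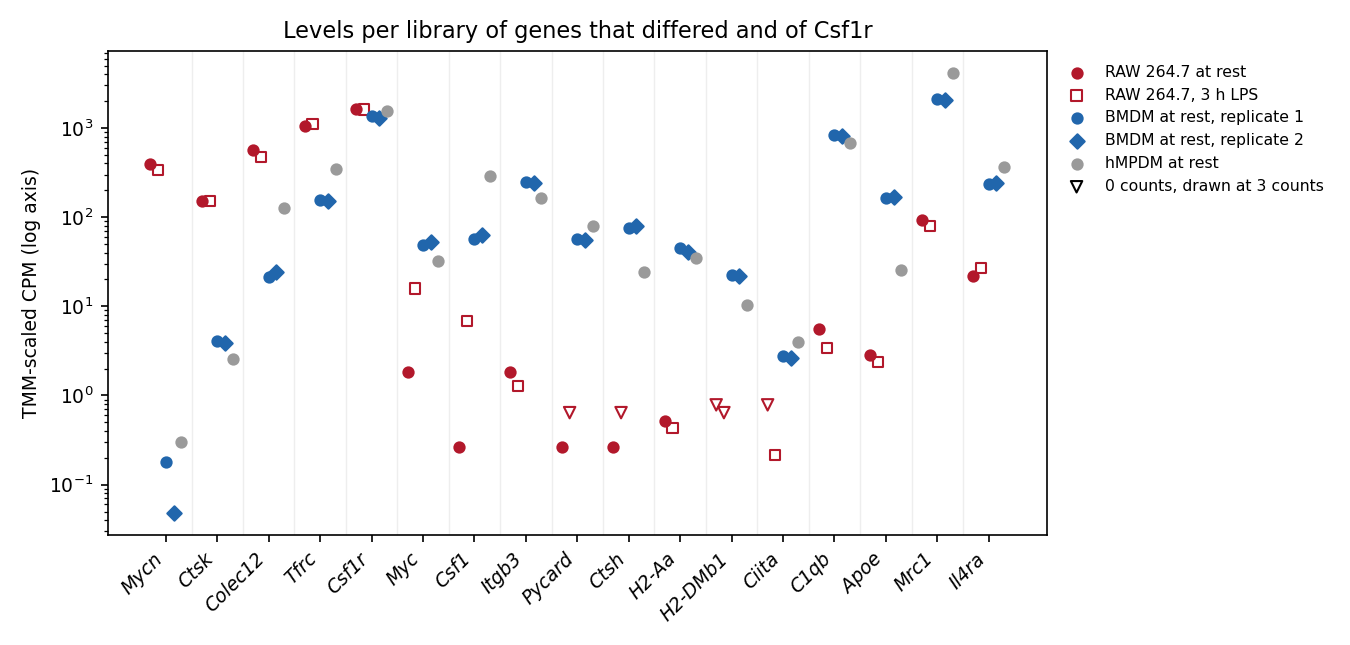
CPM of 17 genes on a log axis in RAW at rest and after 3 h of LPS (red), in both resting BMDM libraries (blue) and in resting hMPDM (grey), where a triangle marks 0 reads and is drawn at the level of 3 counts. Mycn, Ctsk, Colec12 and Tfrc lie higher in RAW, Csf1r lies between 1296 and 1617 CPM in all 5 libraries, and the other 12 genes lie lower in RAW at rest than in BMDM.

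RNA of the MHC class II chains was close to absent from RAW cells, and 2 enzymes of antigen processing were higher. The class II genes are transcribed under control of the co-activator CIITA. Ciita had no read in RAW and 2.75 and 2.62 CPM in BMDM, at least 3.41-fold lower. H2-Aa had 2 reads in RAW (0.523 CPM) against 44.8 and 40.6 CPM in BMDM, a ratio of 0.0123 (0.00149 to 0.0445). H2-Ab1 had 3 reads against 29.4 and 25.7 CPM (ratio 0.0287, 0.00591 to 0.0841) and H2-Eb1 had 1 read against 28.0 and 25.3 CPM (ratio 0.00987, 0.000250 to 0.0551). H2-DMb1, a chain of the peptide-loading factor, had no read in RAW against 22.5 and 21.9 CPM in BMDM, at least 28.2-fold lower. Cd74, the invariant chain, was an exception at 78.8 CPM in RAW and 93.1 and 96.1 CPM in BMDM (log2 -0.27). The thiol reductase Ifi30 stood at 537 CPM in RAW against 113 and 115 CPM in BMDM (log2 2.24), and the protease Ctss at 2721 CPM against 1193 and 1190 CPM (log2 1.19). In all 6 of 12 members were more than 2-fold lower and 2 higher. The list median was -5.49, or -1.77 with genes at 0 reads set at their bound.

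The promoters of 3 of these class II genes are shown because class II promoters are known for an X box and a Y box, through which RFX, NF-Y and CIITA act. The 3 windows shown each held an exact match to the letters searched for at least 1 of these boxes. No exact match to either box was recorded for the other class II genes searched, among them H2-Ab1, Cd74 and Ciita. Variants of these letters were not searched for, so a window without a match may still hold a box. The windows shown run 5′ to 3′ from 250 bases before to 50 after the start site (RefSeq, GRCm38.p6). Capitals mark the letters of the X box searched and of the Y box (CTGATTGG), on either strand.
H2-Aa (chr17:34287774-34288073, minus strand): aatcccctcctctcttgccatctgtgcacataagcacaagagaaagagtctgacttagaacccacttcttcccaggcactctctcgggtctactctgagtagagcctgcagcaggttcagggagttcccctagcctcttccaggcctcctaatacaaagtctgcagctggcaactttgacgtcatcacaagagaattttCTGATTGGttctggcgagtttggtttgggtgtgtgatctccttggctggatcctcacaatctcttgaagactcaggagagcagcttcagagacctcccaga
H2-Eb1 (chr17:34305617-34305916, plus strand): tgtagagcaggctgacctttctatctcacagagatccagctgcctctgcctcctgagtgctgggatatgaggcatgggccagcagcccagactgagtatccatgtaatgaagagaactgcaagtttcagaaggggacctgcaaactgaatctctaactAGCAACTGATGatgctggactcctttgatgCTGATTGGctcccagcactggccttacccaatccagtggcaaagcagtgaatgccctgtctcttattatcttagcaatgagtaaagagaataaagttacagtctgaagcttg
H2-DMb1 (chr17:34152941-34153240, plus strand): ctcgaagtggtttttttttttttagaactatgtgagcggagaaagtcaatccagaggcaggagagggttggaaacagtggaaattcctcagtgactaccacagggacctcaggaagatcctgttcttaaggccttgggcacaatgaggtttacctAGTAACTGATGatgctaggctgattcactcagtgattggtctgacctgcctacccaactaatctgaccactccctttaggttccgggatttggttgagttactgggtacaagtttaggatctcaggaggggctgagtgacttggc
By exact match H2-Eb1 held both boxes, with first bases at -92 and -62 from the start site. H2-Aa held the Y box at -51 and H2-DMb1 the X box at -95. Whether H2-Aa holds a variant X box or H2-DMb1 a variant Y box was not tested. The X box letters occurred in 0.298% and the Y box letters in 4.10% of all 32851 promoters in the table. Among the 12195 promoters of tested genes the shares were 0.213% and 5.53%. For the 1142 promoters of genes more than 2-fold lower in RAW they were 0.263% and 3.77%, and for the 625 of genes more than 2-fold higher 0% and 4%. A match is a description of the letters and no evidence of binding.

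Of 14 genes of MHC class I presentation 4 were called higher in RAW cells, 6 lower and 4 neither, against 27.1% higher and 31.3% lower over all tested genes. By the 2-fold test 1, the peptide transporter subunit Tap2 (28.5 CPM in RAW, against 70.7 and 71.1 CPM in BMDM), was more than 2-fold lower and 0 were higher. That call was lost under scaling by library size (log2 -1.11, against -1.31). It was also lost in DESeq2 and with the coefficient of variation set at 10% and 30%. The median of -0.12 turned to 0.08 when libraries were scaled by size alone. The classical genes H2-K1 and H2-D1 were both called lower without the fold threshold. H2-D1 stood at 625 CPM in RAW against 1307 and 1243 CPM in BMDM (log2 -1.03), and H2-K1 at 366 CPM against 706 and 683 CPM (log2 -0.92). Both have near-identical relatives, so their counts are uncertain.

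The inflammasome adaptor was nearly absent from RAW cells, which are known to lack it. Inflammasomes sense danger signals, and through the adaptor ASC, the product of Pycard, they activate caspase-1. Pycard (ENSMUSG00000030793.3, chromosome 7, 127992103 to 127993867, mm10) had 1 read in RAW against 56.3 and 56.1 CPM in BMDM, a ratio of 0.00466 (0.000118 to 0.0260). It had no read in RAW after LPS and 79.5 CPM in hMPDM at rest. Nlrp3, a sensor that signals through ASC, was also more than 2-fold lower (51.3 CPM in RAW, against 126 and 122 CPM in BMDM). The Nlrp3 call was lost under scaling by library size (log2 -1.07, against -1.27). It was also lost in DESeq2 and with the coefficient of variation set at 10% and 30%. The other 18 of 20 members passed the fold threshold in neither direction: Casp1 stood at 94.7 CPM in RAW against 71.5 and 73.3 CPM in BMDM, the pore former Gsdmd at 61.5 CPM against 61.9 and 55.8 CPM, and the DNA sensor Aim2 at 64.1 CPM against 52.0 and 47.6 CPM.

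Of 24 genes of Toll-like receptors and LPS sensing 7 were called higher in RAW cells, 10 were called lower and 7 were not called. By the 2-fold test 2 were higher and 1 lower. Tlr4, which senses LPS, was at 96.0 CPM in RAW and 103 and 101 CPM in BMDM (log2 -0.09, adjusted p = 0.381), and its co-receptor Cd14 at 507 CPM against 391 and 395 CPM. Tlr2, the receptor for bacterial lipopeptides, was higher, at 452 CPM in RAW against 104 and 111 CPM in BMDM (log2 2.07, SE 0.0584). Ly86, the secreted partner of Cd180, stood at 95.8 CPM in RAW against 20.9 and 20.3 CPM in BMDM, and at 0.180 CPM in hMPDM. Tlr5, the flagellin receptor, had no read in RAW against 12.9 and 12.6 CPM in BMDM, at least 16.2-fold lower. The other 21 of 24 members passed the fold threshold in neither direction, and the list median of -0.14 turned to 0.06 under scaling by library size.

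Interferon-stimulated genes showed no common shift. Of 37 tested genes 3 were more than 2-fold higher in RAW and 1 lower, with a median of -0.27. Over all tested genes these shares were 5.72% and 8.91%. Ifi44 stood at 24.1 CPM in RAW against 0.120 and 0.291 CPM in BMDM (log2 6.74, SE 0.336), and the 2′-5′ oligoadenylate synthetase family members Oasl1 and Oas2 were at 28.5 and 36.4 CPM in RAW. In BMDM, Oasl1 had 2.15 and 2.52 CPM and Oas2 11.1 and 11.1 CPM. Ifi204, a DNA sensor of the Ifi200 family, was lower (8.90 CPM, against 46.1 and 45.2 CPM in BMDM), though reads of that family are hard to assign. Isg15 was at 4.71 CPM in RAW and 4.78 and 5.04 CPM in BMDM.

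Of 13 tested complement genes 5 were more than 2-fold lower in RAW cells, 3 higher and 5 neither, against 8.91% lower and 5.72% higher over all tested genes. The 3 chains of C1q, which tags dying cells and immune complexes, were far lower in RAW cells. C1qb (ENSMUSG00000036905.8, chromosome 4, 136880129 to 136886187, mm10) stood at 5.49 CPM in RAW against 823 and 816 CPM in BMDM (log2 -7.22, SE 0.129), C1qc at 8.11 CPM against 572 and 564 CPM (log2 -6.13), and C1qa at 2.88 CPM against 69.8 and 65.9 CPM (log2 -4.55). The anaphylatoxin receptor C5ar1 was at 82.4 CPM in RAW against 685 and 688 CPM in BMDM (log2 -3.06), and C3ar1 was lower as well (330 CPM, against 724 and 783 CPM). Without BMDM replicate 2 C3ar1 lost its call (edgeR adjusted p for 2-fold = 0.0688, 5.91e-05 to 1 over the alternatives), as it did under scaling by library size (log2 -0.99, against -1.19). C3, the central component of the cascade, was higher in RAW at 42.6 CPM against 15.8 and 16.8 CPM in BMDM (log2 1.39). C4b was higher too, with 6 reads in RAW against 2 and 3 in BMDM, a call lost without the filter on low counts. In DESeq2, and with the coefficient of variation set at 10% and 30%, C3ar1 and C3 lost their 2-fold calls.

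The C1qc promoter (RefSeq, GRCm38.p6) is given as a C1q promoter whose window held a PU.1 type motif, which the window of C1qb did not, searched on both strands (GAGGAAGT, here as its reverse complement in capitals, first base at -195).
C1qc (chr4:136892865-136893164, minus strand): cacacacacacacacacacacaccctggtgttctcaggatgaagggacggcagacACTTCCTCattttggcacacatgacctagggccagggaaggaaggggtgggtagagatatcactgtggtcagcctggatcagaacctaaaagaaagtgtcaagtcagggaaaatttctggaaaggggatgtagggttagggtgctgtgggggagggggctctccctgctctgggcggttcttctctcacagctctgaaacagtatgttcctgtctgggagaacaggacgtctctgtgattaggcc
That motif occurred in 5.25% of the 1142 promoters of genes more than 2-fold lower in RAW, in 2.56% of the 625 promoters of genes more than 2-fold higher and in 3.49% of the 12195 promoters of tested genes. The Pycard promoter held it at -44. Variants of its letters were not searched for. Promoters of both called sets had fewer CpG dinucleotides than those of genes past neither call: the median observed over expected ratio was 0.644 for the higher, 0.564 for the lower and 0.770 for the remaining genes. The E-box CACGTG, the site class that MYC proteins bind, occurred in 9.92% of promoters of the higher genes and 10.1% of those of all tested genes.

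Of 20 scavenger and lectin receptors 6 were more than 2-fold lower in RAW cells, 3 higher and 11 neither, against 8.91% lower and 5.72% higher over all tested genes. Mrc1, the mannose receptor CD206, stood at 92.1 CPM in RAW against 2085 and 2056 CPM in BMDM (log2 -4.49, SE 0.0709). Stab1 was at 103 CPM in RAW against 1662 and 1610 CPM in BMDM (log2 -4.00), and Marco had no read against 15.3 and 10.7 CPM, at least 16.3-fold lower. The collectin Colec12 went the other way, at 560 CPM in RAW against 21.5 and 24.5 CPM in BMDM (log2 4.60, SE 0.0672) and 127 CPM in hMPDM. Clec5a and Clec4a3 were also more than 2-fold higher, and Clec4n (Dectin-2), Clec4a1 and Mgl2 lower. Without BMDM replicate 2 Clec5a lost its call (edgeR adjusted p for 2-fold = 0.0666, 6.00e-06 to 0.795 over the alternatives). Msr1 and Cd36, scavenger receptors for modified lipoprotein, passed the fold threshold in neither direction, with Msr1 at 838 CPM in RAW and 460 and 475 CPM in BMDM.

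The receptors that clear dead cells followed Mrc1. Axl had 1 read in RAW against 19.3 and 18.9 CPM in BMDM (ratio 0.0137, 0.000346 to 0.0765), and Mertk was at 21.5 CPM against 105 and 109 CPM (log2 -2.32). Their bridging ligand Gas6 stood at 354 CPM in RAW and 1382 and 1330 CPM in BMDM (log2 -1.94). Among Fc receptors, Fcgr3 was at 199.9 CPM in RAW against 659 and 674 CPM in BMDM, and the IgG transport receptor Fcgrt at 7.33 CPM against 67.8 and 60.9 CPM. The inhibitory receptor Pirb was at 34.3 CPM in RAW against 285 and 286 CPM in BMDM (log2 -3.06). Of 16 tested members 9 were more than 2-fold lower and 0 higher, with a median of -1.53.

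Integrins and tetraspanins were mostly lower in RAW cells. Itgb3, the integrin beta 3 chain, stood at 1.83 CPM in RAW against 249 and 243 CPM in BMDM (log2 -7.06, SE 0.182). The laminin receptor chain Itga6 was at 8.37 CPM in RAW against 175 and 179 CPM in BMDM, and Cd81 at 20.7 CPM against 431 and 443 CPM (both log2 -4.40). The leukocyte integrin chain Itgb2 was more than 2-fold lower as well (507 CPM in RAW, against 1231 and 1214 CPM in BMDM). Itgb2 lost that call under scaling by library size (log2 -1.07, against -1.27). It also lost it with the coefficient of variation set at 10% and 30%. The widely used Itgb1 was more than 2-fold lower too (340 CPM, against 1136 and 1150 CPM). Itgax, the CD11c chain, was higher at 39.5 CPM in RAW against 10.9 and 10.8 CPM in BMDM, and so was Itga4 at 363 CPM against 141 and 148 CPM. In all 10 of 18 members were more than 2-fold lower and 2 higher.

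Of 16 chemokines 5 were more than 2-fold lower in RAW cells, 2 higher and 9 neither, against 8.91% lower and 5.72% higher over all tested genes. Ccl6 stood at 9.16 CPM in RAW against 645 and 648 CPM in BMDM (log2 -6.14, SE 0.116), platelet factor 4 (Pf4) at 6.8 CPM against 386 and 368 CPM, and Ccl7 at 8.11 CPM against 218 and 227 CPM. Ccl12 had no read in RAW against 20.03 and 18.7 CPM in BMDM, at least 24.5-fold lower. Cxcl16, which also serves as a scavenger receptor, was higher at 86.9 CPM in RAW against 24.7 and 24.7 CPM in BMDM. Of 18 chemokine and trafficking receptors 7 were more than 2-fold lower and 1, Cx3cr1, higher (18.3 CPM in RAW, against 4.90 and 3.68 CPM in BMDM). Ccr1 was at 3.14 CPM in RAW against 126 and 129 CPM in BMDM. P2ry12 had no read against 7.05 and 6.88 CPM, at least 8.86-fold lower.

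**Figure D4:**
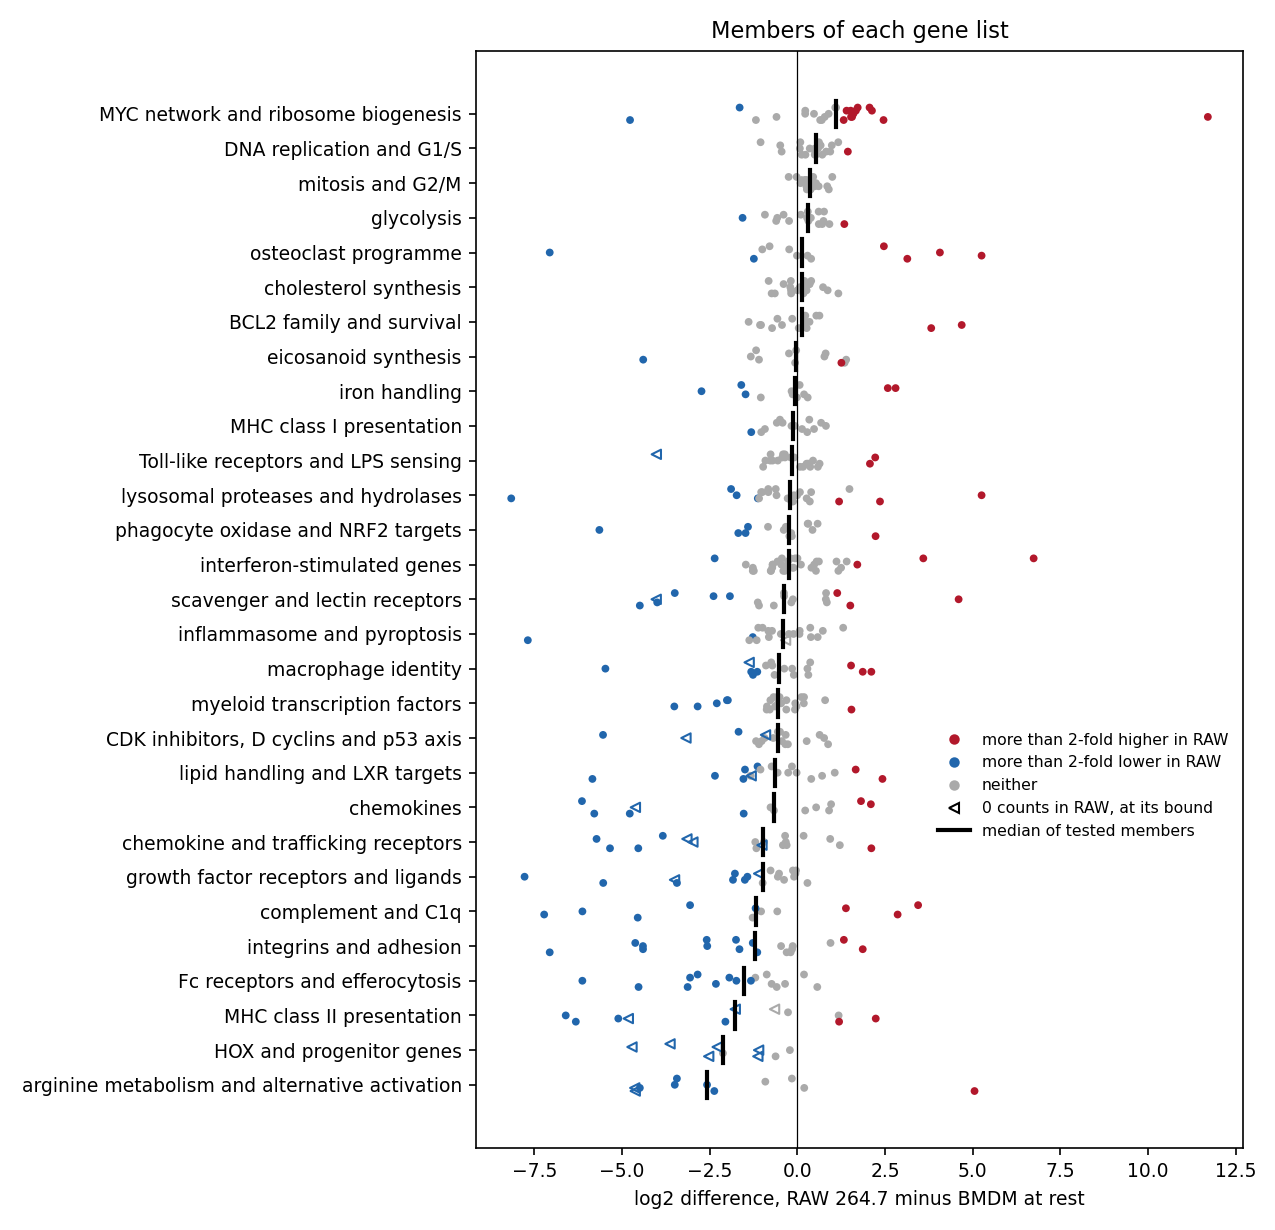
Log2 difference of each tested member of 29 gene lists, one list per line, ordered by the list's median with genes at 0 reads in RAW set at their bound. Red members are more than 2-fold higher in RAW and blue ones more than 2-fold lower, and the ribosome list lies at the top and the list of arginine metabolism and alternative activation at the bottom.

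Lipid and iron genes held members far apart in both directions. Apoe, the apolipoprotein that macrophages secrete, stood at 2.88 CPM in RAW against 162 and 169 CPM in BMDM (log2 -5.84, SE 0.184). Abcg1, a cholesterol exporter, was higher at 106 CPM in RAW against 34.1 and 33.1 CPM in BMDM, and Scd1, a fatty acid desaturase, at 81.1 CPM against 15.3 and 14.9 CPM, while the exporter Abca1 was at 280 CPM against 286 and 282 CPM (adjusted p = 0.789). The list had 6 of 18 members more than 2-fold lower and 2 higher. Cholesterol synthesis had 0 of 21 members past the 2-fold test in either direction, also at an unadjusted p under 0.05 in that test or in DESeq2. Without the fold threshold 10 were called higher and 6 lower, with a median of 0.14. Among iron genes, the transferrin receptor Tfrc stood at 1063 CPM in RAW against 155 and 150.2 CPM in BMDM (log2 2.80, SE 0.0471). The iron exporter Slc40a1 was at 70.1 CPM in RAW against 478 and 454 CPM in BMDM (log2 -2.73), and ferritin heavy chain Fth1 at 4737 CPM against 14119 and 14551 CPM (log2 -1.60).

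Lysosomal genes took a large part of both libraries. The cathepsins Ctsb and Ctsd, at 9498 and 10119 CPM in RAW, were lower than in BMDM, where Ctsb had 20961 and 20508 CPM and Ctsd 21211 and 20138 CPM. Ctsb passed the 2-fold test (log2 -1.13), though not under scaling by library size (log2 -0.93). Ctsb also lost that call in DESeq2 and with the coefficient of variation set at 10% and 30%. Ctsd did not pass the 2-fold test (log2 -1.03). Psap, the precursor of the saposins, stood at 4220 CPM in RAW against 15853 and 15403 CPM in BMDM (log2 -1.89). Ctsh had 1 read in RAW against 76.1 and 79.6 CPM in BMDM, a ratio of 0.00335 (8.48e-05 to 0.0187). Ctsk, the collagen-cutting cathepsin of osteoclasts, was at 153 CPM in RAW against 4.06 and 3.92 CPM in BMDM (log2 5.25, SE 0.114), and Ctsf was higher too. Of 24 members 4 were more than 2-fold lower and 3 higher, against 8.91% lower and 5.72% higher over all tested genes.

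RAW cells can be turned into osteoclasts with RANKL. At rest several osteoclast genes were higher in RAW than in BMDM, and others were lower. Beside Ctsk, the fusion receptor Dcstamp stood at 26.2 CPM in RAW against 1.55 and 1.55 CPM in BMDM (log2 4.07, SE 0.238), Acp5, the tartrate-resistant phosphatase, at 10.2 CPM against 1.20 and 1.11 CPM, and the kinase Src at 24.3 CPM against 4.48 and 4.31 CPM. The RANK gene Tnfrsf11a was at 59.7 CPM in RAW and 49.0 and 48.5 CPM in BMDM, and the regulator Nfatc1 at 61.0 CPM against 72.2 and 71.1 CPM. Itgb3, which osteoclasts use to attach, lay far lower as given above, and the chloride transporter Clcn7 was lower (139 CPM, against 336 and 322 CPM). Clcn7 lost its 2-fold call under scaling by library size (log2 -1.04, against -1.24). It also lost that call in DESeq2 and with the coefficient of variation set at 10% and 30%. In all 4 of 12 tested members were more than 2-fold higher and 2 lower, and Calcr, the calcitonin receptor, had no read in any of the 3 libraries. The list median of 0.14 was -0.16 without the filter on low counts.

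One chain of the phagocyte oxidase was higher and several NRF2 targets were lower. Cybb, the catalytic chain of the phagocyte oxidase, stood at 972 CPM in RAW against 205 and 209 CPM in BMDM (log2 2.23, SE 0.0467), while its partners Cyba, Ncf1 and Ncf4 passed the fold threshold in neither direction. Nqo1, a quinone reductase and NRF2 target, had 1 read in RAW against 15.4 and 12.2 CPM in BMDM (ratio 0.0192, 0.000485 to 0.108). Srxn1, Hmox1 and Gclm were also more than 2-fold lower, with Hmox1 at 327 CPM in RAW against 903 and 917 CPM in BMDM. Gclc, Txnrd1 and Slc7a11, further targets of NRF2, passed the fold threshold in neither direction.

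Genes of alternative activation were the lowest list of those ordered. Of 12 tested members 7 were more than 2-fold lower and 1 higher, with a median of -3.0, or -2.57 with bounds. Besides Mrc1, Mgl2 and Il4ra, the transglutaminase Tgm2 stood at 297 CPM in RAW against 1533 and 1534 CPM in BMDM (log2 -2.37). Chil3 had no read in RAW against 19.3 and 19.3 CPM in BMDM, at least 24.6-fold lower, and fibronectin, Fn1, none against 18.8 and 20.1 CPM, at least 24.9-fold lower. Arg2 was the member higher in RAW (3.92 CPM, against 0.120 and 0.0969 CPM in BMDM).

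The eicosanoid list held 1 member of 12 on each side. The thromboxane synthase Tbxas1 stood at 5.76 CPM in RAW against 124 and 119 CPM in BMDM (log2 -4.39, SE 0.170) and the phospholipase Pla2g4a at 93.9 CPM against 38.4 and 40.1 CPM (log2 1.26). The median of -0.05 turned to 0.15 under scaling by library size, as that of the iron list turned to 0.13, against -0.07 with TMM. Glycolysis had 1 of 18 members more than 2-fold higher and 1 lower, the regulator Pfkfb3 (35.3 CPM in RAW, against 107 and 102 CPM in BMDM), with a median of 0.31. Over all tested genes 5.72% were more than 2-fold higher and 8.91% lower. The glycolysis member higher was Gapdh, whose many near-identical pseudogenes make its count uncertain and whose call was lost without BMDM replicate 2. Of 17 genes of survival 2, Bok and Bcl2a1d, were more than 2-fold higher, both below 5 CPM, and 0 lower. Abl1, the cellular counterpart of the viral oncogene, was at 98.1 CPM in RAW and 138 and 128 CPM in BMDM.

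Several genes of marrow progenitors were read in BMDM and had no read in RAW cells. Of 11 tested members 6 were more than 2-fold lower, each with 0 reads in RAW, and 0 higher. Cd34 stood at 18.1 and 22.6 CPM in BMDM, which makes it at least 26.3-fold lower in RAW, Sox4 at 8.49 and 10.7 CPM (at least 12.4-fold), and Meis1 at 4.6 and 3.2 CPM (at least 4.88-fold). Lmo2, also expressed in mature macrophages, was at 88.2 CPM in RAW and 138 and 133 CPM in BMDM. The list median was -7.19, or -2.12 with bounds. For the lists given here with 0 members past the 2-fold test of edgeR in a direction, 0 members passed there in DESeq2. By the unadjusted p of that edgeR 2-fold test, 0 members were under 0.05 except 1 T cell marker, Lck, in the direction of higher in RAW.

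Summed over 12 neutrophil markers the level was 21.2 CPM in RAW against 104 and 111 CPM in BMDM, and 7 of 9 tested markers were more than 2-fold lower. Elane, Mpo and Ltf had 0 reads in RAW. Elane, at 0.658 and 1.36 CPM in BMDM, did not pass the 2-fold test. Mpo had 2.27 and 2.57 CPM in BMDM (at least 3.10-fold lower in RAW) and Ltf 4.54 and 4.41 CPM (at least 5.69-fold). Mpo and Ltf lost their 2-fold calls in DESeq2. Cebpe was higher in RAW, at 8.90 CPM against 0.478 and 0.678 CPM in BMDM. The 9 B cell markers summed to 3.14 CPM in RAW against 58.6 and 56.5 CPM in BMDM, nearly all of it Ighm, and Cd79a had no read in RAW. Of the T and NK cell markers 2 were tested. Cd4 had no read in RAW against 10.0 and 9.50 CPM in BMDM. Lck, a kinase of T cell receptor signalling, had 7 reads in RAW (1.83 CPM) against 0.478 and 0.339 CPM in BMDM and was called higher without the fold threshold (log2 2.16, SE 0.740). The part of such cells in the differences was not tested. Xist, which is transcribed from the inactive X chromosome of female cells, stood at 8.37 CPM in RAW against 1267 and 1233 CPM in BMDM (log2 -7.22, SE 0.120). The Y-linked genes Ddx3y, Eif2s3y, Kdm5d and Uty had no read in any of the 3 libraries.

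The largest differences over all genes were found in genes of many kinds. Among the 15 genes furthest above BMDM, beside Mycn, were Hal, the first enzyme of histidine breakdown (154 CPM in RAW, against 0.359 and 0.291 CPM in BMDM, log2 8.86), and Atp6v0e2, a subunit of the proton pump (49.4 CPM, against 0.179 and 0.0484 CPM, log2 8.70). Cpne8, a copine, was at 70.1 CPM in RAW and had 3 reads over both BMDM libraries, a ratio of 873 (296 to 4262). The adhesion molecule Nectin3, the claudin Cldn11, the betaine carrier Slc6a12, Igsf3 and the Rab regulator Sgsm1 had 1 read in BMDM each. Sgsm1 was at 47.6 CPM in RAW (ratio 1779, 315 to 70665). The rest were Gm10260, the processed pseudogenes Gm15772 and Atp6v0c-ps2, the enolase copy Eno1b, and H2-Q2 and Gm8909 of the class I family. Counts of such copies and families are uncertain, since reads of near-identical sequences can be split among them.

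The 15 genes furthest below BMDM held 1 to 10 reads in RAW. Tnfrsf21, the death receptor DR6, had 1 read in RAW against 79.9 and 85.3 CPM in BMDM (ratio 0.00316, 7.99e-05 to 0.0176). Gpx3, the secreted glutathione peroxidase, had 1 read against 66.0 and 65.8 CPM, and Fcrls 1 read against 73.6 and 67.4 CPM. Emb, a partner of monocarboxylate carriers, stood at 2.62 CPM in RAW against 409 and 407 CPM in BMDM (log2 -7.28, SE 0.153). F13a1, the coagulation factor XIII A chain, and Marcks, a substrate of protein kinase C, had 3 reads each in RAW, at ratios of 0.00518 (0.00107 to 0.0152) and 0.00547 (0.00113 to 0.0160). Wwc2, Iqgap2, Eya1, Sel1l3, Tspan32 and Gpr141 had 1 or 2 reads in RAW and 44.3 to 106 CPM in BMDM, beside Ctsh, Csf1 and Pycard above. Sel1l3 was at 0.180 CPM in hMPDM too, whereas the other 5 were at 32.4 to 192 CPM there.

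Some genes were read in one cell type only. With at least 5 CPM as the minimum, 125 genes of BMDM had 0 reads in RAW and 14 genes of RAW had 0 reads in both BMDM libraries, and leaving out BMDM replicate 1 or 2 raised the 14 to 29 or 31. Of the 125, 88 had 0 reads in RAW after LPS as well and 72 had at least 5 CPM in hMPDM. Cgnl1, a junction protein, had no read in RAW and was at least 229-fold lower, the glycogen-targeting subunit Ppp1r3b at least 101-fold, and Tceal8 at least 56.8-fold. Egln3, an oxygen sensor of the HIF pathway, had 29.1 and 28.0 CPM in BMDM, and Pde3b, a phosphodiesterase, 31.7 and 28.5 CPM. Fcho1, Cercam, Peli2, Arhgap6 and Rapsn complete the 10 most abundant. Among the 14, Zfhx4, a homeobox gene, stood at 55.5 CPM in RAW with no read in BMDM, at least 691-fold higher. Ifi202b, Spink5, Myh14, Trpm1, Adh7 and Nova1 were read in RAW at 26.9, 25.4, 11.8, 10.7, 9.42 and 7.06 CPM, and Ifi202b is a member of a family of near-identical genes. The remaining 3 of the 10 most abundant, Gm6472, Gm10499 and Wsb2-ps, are pseudogenes. Of the 14, 12 had at least 5 CPM in RAW after LPS and 12 had no read in hMPDM.

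Calls were also counted by kind of gene, with processed pseudogenes, which are copies of spliced RNA in the genome, set beside protein-coding genes. Of 168 tested, 42 (25%) were more than 2-fold higher and 3 (1.79%) lower, whereas of 11509 protein-coding genes 618 (5.37%) were higher and 1056 (9.18%) lower. With protein-coding genes alone in the fit, 630 genes were more than 2-fold higher and 1032 lower. The difference between the kinds of gene was not tested.

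The genes of chromosome 3 had the highest median of the 20 chromosomes. The 596 tested genes there had a median log2 difference of 0.26, while the medians of the other 19 chromosomes lay between -0.16 and 0.03. Of genes on chromosome 3, 60.4% were above 0. They were more than 2-fold higher in 9.40% of cases and lower in 9.23%. Cldn11, Igsf3, Zfhx4 and Adh7, named above as higher in RAW, lie there, and so do Csf1 and Fcrls, named as lower.

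**Figure D5:**
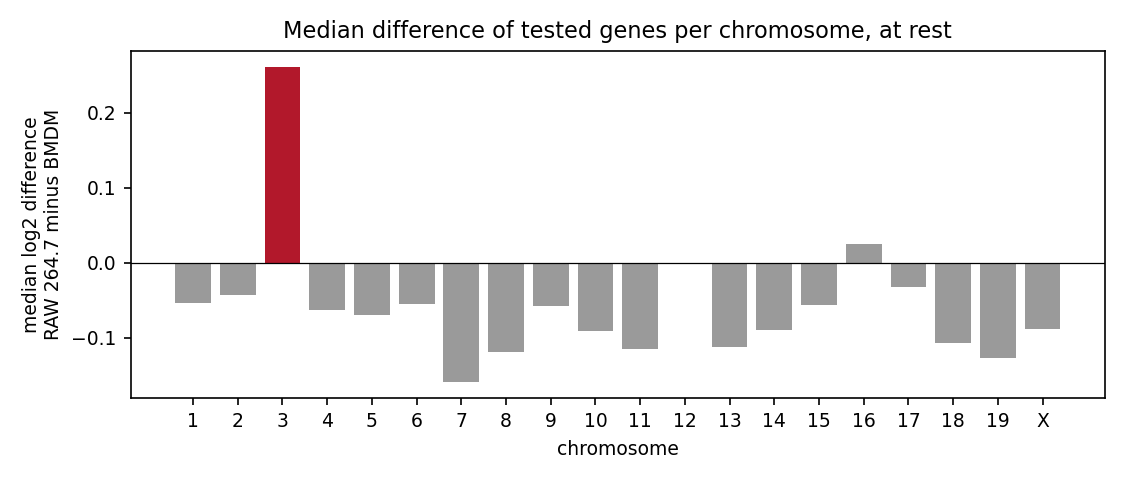
Median log2 difference, RAW minus BMDM at rest, of the tested genes of each chromosome (bars from 0). Chromosome 3, in red, is at 0.26 and the other chromosomes lie between -0.16 and 0.03.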

How the data were processed

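Polyadenylated RNA of 8 mouse macrophage libraries was counted per gene. The authors deposited raw counts per gene, and per the submitters' processing notes cutadapt, STAR, SAMtools, bedtools and featureCounts were used with the mm10 build. Not given in the sources used here are versions, annotation and strand setting, so reads of overlapping or antisense genes cannot be told apart, and 2 of the 10 value columns, whose names match no sample label, were not used. Counts were fitted with edgeR 4.0.16 in R 4.3.3 (filterByExpr, TMM scaling, quasi-likelihood) over all 8 libraries, which left 2 residual degrees of freedom, and 12461 genes were tested. Benjamini-Hochberg adjusted p-values are over all tested genes, with a call at 0.05. glmTreat tested against a fold of 2. The standard error is the log2 difference over the root of the F statistic and can fall below counting error. The RAW library at rest held 3116434 counts and the BMDM libraries 15671839 and 19307312. Floors of 3 counts over the group and 95% intervals of ratios (exact, from counts) cover counting error only. Genes named were the 15 largest in each direction with at least 10 CPM in the higher cell type and a count in both, the 10 most abundant at 0 counts in each, and members of lists. Values of some list members are not reported here. Members and lists were chosen with earlier results of these data known. Scripts were tested on simulated data. Alternatives were DESeq2 1.42.0, other scalings and filters, set coefficients of variation, left-out libraries, a replicate block and, added after seeing the data, protein-coding genes alone.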

Additional observations from a re-analysis of the deposited data

How the results depend on the processing

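Counts of calls moved by over 1.5 times in these cases. DESeq2's own test called 2098 genes higher and 2365 lower, with 326 and 482 past 2-fold. With the coefficient of variation set at 30%, 646 were called higher and 937 lower, with 406 and 673 past 2-fold. A minimum of 1 CPM gave 393 genes at 0 in RAW and 67 at 0 in BMDM, and a minimum of 20 CPM gave 25 and 5. Genes at 0 in BMDM were 29 to 31 when 1 BMDM library was left out, against 14. Leaving out a library gave 3281 to 3488 genes called higher and 3698 to 3960 lower, with 694 to 753 and 1110 to 1163 past 2-fold. With a replicate block, 3383 were called higher and 3885 lower, 726 and 1133 past 2-fold, and Clec5a lost its 2-fold call. Across genes, deviations of BMDM replicate 1 from the group mean at rest correlated at -0.03 with those after LPS. With only 2 closely alike libraries per state, that value cannot tell whether the replicate numbers pair the samples. Protein-coding genes alone, chosen after seeing the data, gave 630 higher and 1032 lower past 2-fold. Scaling by library size turned the sign of Abca1 (0.18), Cyba (0.024), Mpeg1 (0.10) and Txnrd1 (0.044). Of 180 named genes past 2-fold, 10 lost that call under this scaling, 32 of 179 in DESeq2, 15 at a coefficient of variation of 10% and 47 at 30%; the cause was not tested. Not every lost call is stated beside its gene. The RAW library, with 1 sample and the fewest counts, limits what can be told for genes under its floor of 0.785 CPM.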

Other observations

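Some abundant genes outside the lists also differed, and these were chosen after their values were seen. Lyz1, the lysozyme gene next to Lyz2, stood at 2443 CPM in RAW against 7.89 and 7.75 CPM in BMDM (log2 8.29, SE 0.0597), though reads of the 2 near-identical genes are hard to tell apart. Ctnnb1, which encodes beta-catenin, was at 1926 CPM in RAW against 424 and 417 CPM in BMDM (log2 2.20). The adhesion molecule gene Cadm1 was at 533 CPM in RAW against 66.0 and 64.1 CPM in BMDM (log2 3.04), and the RNA-editing enzyme gene Apobec1 at 966 CPM against 286 and 284 CPM (log2 1.76).

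In the other direction, the macrophage elastase gene Mmp12 stood at 19.1 CPM in RAW against 1500 and 1567 CPM in BMDM (log2 -6.33, SE 0.0953). The selenium carrier gene Selenop was at 45 CPM in RAW against 1195 and 1207 CPM in BMDM (log2 -4.74), and Cd93, a receptor of the C-type lectin family, at 36.9 CPM against 804 and 837 CPM (log2 -4.48). Adam8, a membrane protease, and Slc15a3, a peptide carrier of lysosomes, were at 634 and 151 CPM in RAW, against 2399 and 2330 CPM of Adam8 and 1026 and 1035 CPM of Slc15a3 in BMDM. In hMPDM at rest Mmp12 was at 197 CPM and Selenop at 2967 CPM. Each of these 9 genes was more than 2-fold apart in the direction given (edgeR adjusted p under 0.05).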
